A study of Mus musculus with 8 samples.

Results

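Genes of the primitive endoderm were followed through RNA sequencing of mouse embryonic stem cells (ESCs), neural stem cells (NSCs), extended pluripotent stem cells (EPSCs) and hybrid cells made by fusing EPSCs with NSCs. They were 10 of the 24354 genes listed, taken by symbol, and all 10 were found. The 10 genes are the transcription factors Gata4, Gata6, Sox17, Sox7, Foxa2 and Hnf4a, the endocytic proteins Cubn, Amn and Dab2, and the matrix protein Sparc.

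The ESCs were the E14 line, grown in serum medium with leukemia inhibitory factor on mitomycin C-inactivated feeder fibroblasts of C3H mice. The NSCs carried the OG2+/- and ROSA26+/- transgenes, a GFP reporter driven by the distal Oct4 enhancer and a ubiquitous lacZ gene, and were grown on gelatin without feeders in medium with EGF and FGF2. The EPSCs came from C57BL/6 embryos at the 8-cell stage and were kept in LCDM medium, which contains human leukemia inhibitory factor, CHIR99021, dimethindene maleate and minocycline, on C3H feeders. The hybrid cells were obtained by polyethylene glycol fusion of EPSCs with these NSCs, were picked as a line positive for Oct4-GFP, were near-tetraploid, and were cultured like the EPSCs. The labels mark the ESC and EPSC libraries as wt (wild type). No group carried a deletion or a knockdown. The labels tag the EPSC libraries with p15 and the hybrid libraries with p10. Each of the 4 groups had 2 libraries of a single line. A p-value therefore rests only on the spread between libraries of the same line, pooled over the 4 groups, which may be technical.

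Primitive endoderm is the epithelium that separates from the epiblast inside the blastocyst, under FGF signaling, and later forms the parietal and visceral endoderm of the yolk sac. Gata6 acts at the start of this choice, opposed by Nanog in the epiblast, and is followed by Gata4, Sox17 and Sox7, whereas Foxa2 and Hnf4a belong to the maturing visceral endoderm. Visceral endoderm takes up maternal nutrients through the cubilin receptor, and parietal endoderm lays down a thick basement membrane rich in Sparc, laminin and type IV collagen.

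Values are FPKM, fragments per kilobase of transcript and per 1000000 mapped fragments, so levels are given per transcript length. The depth behind them, derived from the steps on which low values lie, was 21.95 to 32.45 per library in units of 1000000 fragments, and a level of 3 fragments was taken as the floor. Groups were compared with limma on log2(FPKM + 1), with all 8 libraries in one fit, and a gene was called at a Benjamini-Hochberg adjusted p under 0.05. This scale understates the change of genes at low levels. The test covered 13239 genes with a mean of at least 1 FPKM in a group, among them Gata4, Sox7, Dab2, Amn and Sparc. Gata6, Sox17, Foxa2, Cubn and Hnf4a stayed under that filter in every group. Defining genes separated the cells as labelled. Pou5f1 (Oct4) lay between 742 and 1106 FPKM in the 6 ESC, EPSC and hybrid libraries and was listed at 0 in both NSC libraries, whereas Fabp7, a neural stem cell gene, was at 2798 and 2709 FPKM in NSCs and at most 0.238 FPKM elsewhere.

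The primitive endoderm genes other than Sparc were expressed at low levels in all groups. Summed over these 9 genes, the level was 9.36 and 9.48 FPKM in the ESC libraries, 10.02 and 8.55 FPKM in the EPSC libraries, 4.16 and 4.40 FPKM in the hybrid libraries, and 3.26 and 3.51 FPKM in the NSC libraries. The hybrid cells lay below both kinds of embryo-derived stem cell, with no overlap between these libraries, whereas their place relative to the NSCs turned with the scaling, lying above them in FPKM and below them (6.47 and 6.93 against 7.86 and 8.46) after scaling each library to a sum of 1000000, an alternative chosen after seeing the data. In NSCs nearly all of the sum was Dab2. In bulk RNA, a smaller number of cells that express a gene cannot be told apart from less RNA in each cell.

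**Figure D1:**
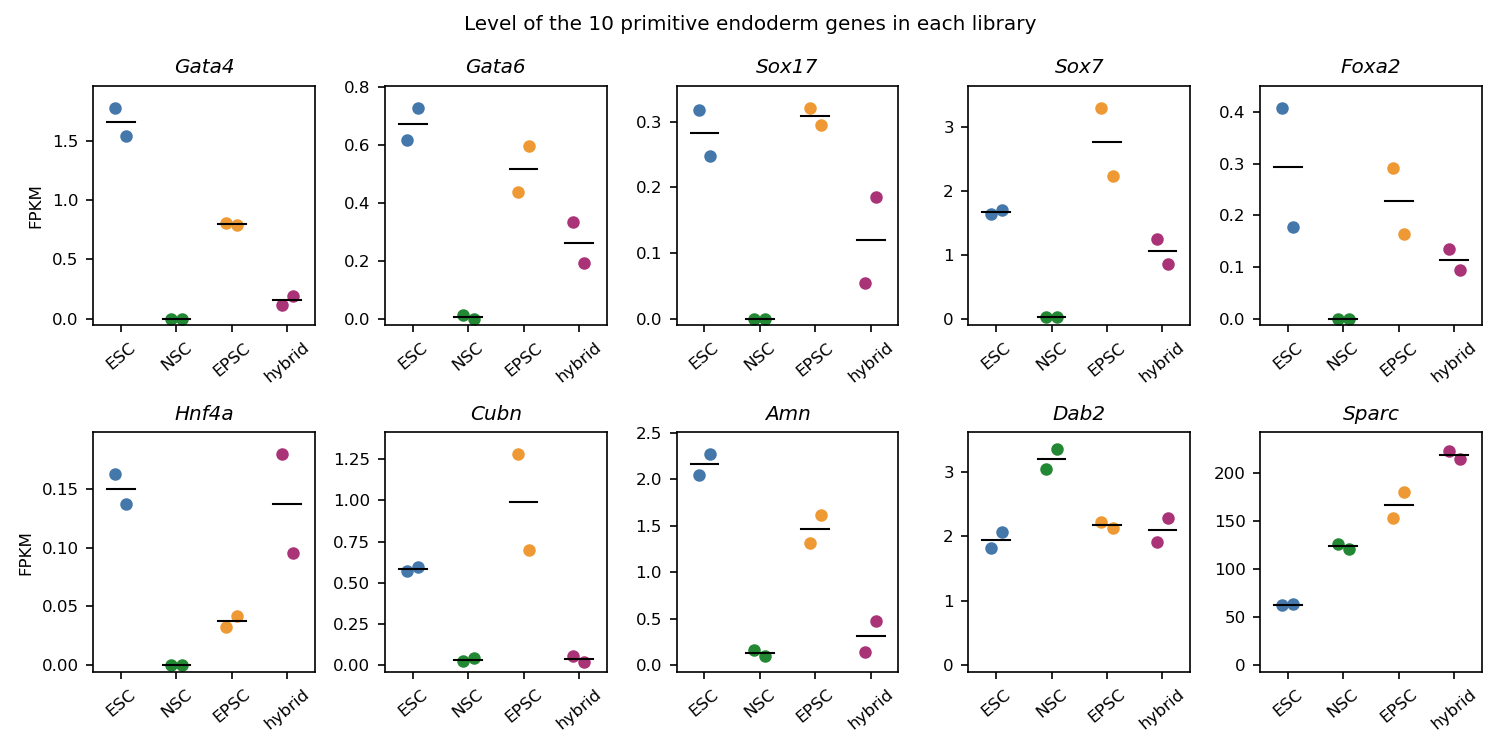
FPKM (vertical axes, each panel with its own scale starting at 0) of the 10 primitive endoderm genes in each library, with points for the 2 libraries of ESCs, NSCs, EPSCs and hybrid cells and a line at the group mean. Gata4 and Amn step down from ESCs to EPSCs to hybrid cells, Cubn is near 0 in hybrid cells and NSCs, and Sparc is highest in hybrid cells.

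Gata4 encodes a zinc finger transcription factor of early endoderm and lies at chr14:63198914-63271712 (mm10, RefSeq). Its level was 1.78 and 1.54 FPKM in ESCs, 0.806 and 0.790 FPKM in EPSCs, and 0.117 and 0.193 FPKM in hybrid cells, and it was listed at 0 in both NSC libraries, where 3 fragments would correspond to 0.0331 and 0.0328 FPKM. These levels stand for about 185 and 147 fragments in ESCs, 56.7 and 57.5 in EPSCs, and 8.95 and 13.9 in hybrid cells. The 4 groups did not overlap, and the order was ESC, EPSC, hybrid, NSC. The mean of the hybrid libraries, 0.155 ± 0.0534 FPKM (SD, n = 2), was 5.15-fold below that of the EPSC libraries, 0.798 ± 0.0118 FPKM (SD, n = 2). Gata4 fell by 0.64 on the log2 scale in hybrid cells relative to EPSCs (SE 0.07, limma adjusted p = 0.00074) and by 1.20 relative to ESCs (SE 0.07, limma adjusted p = 1.19e-05). It was also lower in EPSCs than in ESCs, by a log2 difference of -0.56 (SE 0.07, limma adjusted p = 0.000458).

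Gata6, the earliest factor of the lineage, had the same order of groups, below Gata4 in ESCs and EPSCs. It was at 0.615 and 0.728 FPKM in ESCs, 0.438 and 0.595 FPKM in EPSCs, 0.333 and 0.191 FPKM in hybrid cells, and 0.0117 and 0 FPKM in NSCs. No neighboring groups in this order overlapped, although the higher EPSC library was close to the lower ESC library and the NSC value stands for about 1 fragment in 1 library. The EPSC mean was 1.97-fold above the hybrid mean.

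Sox17 and Sox7 are related SRY-box factors that act in extraembryonic endoderm, and both are also used by endothelium. Sox17 was at 0.318 and 0.248 FPKM in ESCs, 0.322 and 0.296 FPKM in EPSCs, and 0.0539 and 0.185 FPKM in hybrid cells, and was listed at 0 in NSCs. The ESC and EPSC libraries overlapped, and both hybrid libraries, which stand for about 3.91 and 12.7 fragments, lay below them. Sox7, at chr14:63943706-63950732, was at 1.63 and 1.71 FPKM in ESCs, 3.30 and 2.23 FPKM in EPSCs, 1.25 and 0.860 FPKM in hybrid cells, and 0.0229 and 0.0226 FPKM in NSCs, the last about 2 fragments in each library. Sox7 was thus highest in EPSCs, with no overlap between any groups. It fell by 0.87 on the log2 scale in hybrid cells relative to EPSCs (SE 0.15, limma adjusted p = 0.00329) and remained 1.00 above NSCs (SE 0.15, limma adjusted p = 0.000321). Its rise from ESCs to EPSCs, 0.48 on the log2 scale (SE 0.15, limma adjusted p = 0.0231), was called with all libraries.

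Foxa2 and Hnf4a, a forkhead factor and a nuclear receptor of visceral endoderm and liver, were near the limit of detection in some groups. In ESCs their levels stand for about 25.6 and 10.2 fragments (Foxa2) and 22.0 and 17.0 fragments (Hnf4a). Foxa2 was at 0.408 and 0.178 FPKM in ESCs, 0.291 and 0.163 FPKM in EPSCs, and 0.134 and 0.0942 FPKM in hybrid cells, and was listed at 0 in NSCs. Its ESC and EPSC libraries overlapped, and the hybrid libraries, at about 6.16 and 4.09 fragments, were below both. Hnf4a was at 0.163 and 0.137 FPKM in ESCs, 0.0325 and 0.0418 FPKM in EPSCs, and 0.180 and 0.0950 FPKM in hybrid cells, and was listed at 0 in NSCs. Hnf4a was the only one of the 6 transcription factors that lay higher in both hybrid libraries than in both EPSC libraries, and the EPSC values stand for about 2.97 and 3.96 fragments, at the floor.

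Cubn and Amn encode cubilin and amnionless, the subunits of the cubam receptor, which binds ligands at the cell surface and depends on amnionless to reach the membrane. Cubn (chr2:13276338-13491876) was at 0.572 and 0.592 FPKM in ESCs, 1.28 and 0.698 FPKM in EPSCs, 0.0521 and 0.0197 FPKM in hybrid cells, and 0.0221 and 0.0403 FPKM in NSCs. The hybrid libraries overlapped those of NSCs and lay far below those of EPSCs, where the transcript, the longest of the 10, gave about 311 and 176 fragments against 13.7 and 4.90 in hybrid cells. The EPSC mean, 0.989 ± 0.413 FPKM (SD, n = 2), was 27.6-fold above the hybrid mean, 0.0359 ± 0.0229 FPKM (SD, n = 2). This was the largest ratio between EPSCs and hybrid cells among the 10 genes, and it was 50.2 without the first hybrid library and 19.0 without the second, an alternative likewise added after seeing the data. Cubn stayed just under the filter of 1 FPKM. When the test was run without that filter, over 19144 genes of which 30% were called, its log2 difference was -0.93 (SE 0.13, limma adjusted p = 0.00451).

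Amn (chr12:111271096-111276426) was at 2.05 and 2.28 FPKM in ESCs, 1.32 and 1.62 FPKM in EPSCs, 0.141 and 0.475 FPKM in hybrid cells, and 0.165 and 0.0939 FPKM in NSCs. These levels stand for about 5.05 and 16.1 fragments in hybrid cells and 7.01 and 4.03 in NSCs, near the floor of 3. As for Cubn, the hybrid libraries overlapped those of NSCs and were clear of those of EPSCs and ESCs. Amn fell by 0.92 on the log2 scale in hybrid cells relative to EPSCs (SE 0.13, limma adjusted p = 0.00163), and the EPSC mean was 4.76-fold above the hybrid mean. This ratio was 3.09 without the first hybrid library and 10.4 without the second, an alternative chosen after seeing the data. The difference between hybrid cells and NSCs was 0.20 (SE 0.13, limma adjusted p = 0.178), with a 95% interval of -0.10 to 0.50. Both subunits were thus lower in hybrid cells than in EPSCs, and neither was told apart from the level in NSCs.

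The sequences before the start sites of both subunits are shown because hybrid libraries lay below those of EPSCs and ESCs for both, although from ESCs to EPSCs Cubn lay higher and Amn lower. They are the 250 bases upstream of each gene (RefSeq, GRCm38.p6), written 5′ to 3′ on the strand of the gene, at chr2:13491877-13492126 on the minus strand for Cubn and chr12:111270846-111271095 on the plus strand for Amn.
Cubn: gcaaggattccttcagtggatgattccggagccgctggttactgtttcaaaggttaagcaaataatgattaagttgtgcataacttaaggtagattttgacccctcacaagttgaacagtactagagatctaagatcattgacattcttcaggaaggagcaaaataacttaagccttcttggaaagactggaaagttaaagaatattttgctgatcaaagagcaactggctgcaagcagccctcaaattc
Amn: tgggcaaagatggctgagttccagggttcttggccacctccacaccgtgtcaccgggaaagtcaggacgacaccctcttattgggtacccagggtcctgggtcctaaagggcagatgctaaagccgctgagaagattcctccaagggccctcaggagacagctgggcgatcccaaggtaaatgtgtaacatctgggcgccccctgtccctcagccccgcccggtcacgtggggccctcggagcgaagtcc
They were searched on both strands for the letters AGATAA or TGATAA (bound by GATA factors), ACAAT (SOX factors), GTTAAT (HNF1 factors) and TGTTTAC or TATTTAC (forkhead factors), and held no match. Of 32851 promoter windows of this length, 16.6% held the GATA letters, 27.7% the SOX letters, 6.4% the HNF1 letters and 5.8% the forkhead letters. Entries were found for 6 of the 10 genes, and Gata4, Gata6, Sox17 and Sox7 were among those without one. In the other windows, the GATA letters occurred in 1 window each of Dab2, Foxa2 and Hnf4a, 179, 183 and 52 bases before the respective start site. The HNF1 letters occurred in Dab2 (65 bases before the start), Foxa2 (176), Hnf4a (81 and 74) and Sparc (132), in 4 of the 10 windows of these genes, since Foxa2 had 3 windows and Dab2 and Hnf4a 2 each, and the SOX letters in Hnf4a (134).

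Dab2 encodes an adaptor that links lipoprotein receptors such as megalin to clathrin, and it is used by many epithelia besides the visceral endoderm. It was at 1.82 and 2.07 FPKM in ESCs, 2.23 and 2.13 FPKM in EPSCs, 1.90 and 2.28 FPKM in hybrid cells, and 3.04 and 3.36 FPKM in NSCs. Both NSC libraries were above all others, and the hybrid libraries overlapped those of EPSCs and ESCs. Between hybrid cells and EPSCs the log2 difference was -0.04 (SE 0.09, limma adjusted p = 0.762), with a 95% interval of -0.26 to 0.18, so that a change of the size seen for Amn or Cubn lay outside the interval. Relative to NSCs, Dab2 fell by 0.44 in hybrid cells (SE 0.09, limma adjusted p = 0.00275) and by 0.40 in EPSCs (SE 0.09, limma adjusted p = 0.00447). After quantile normalization none of the differences from NSCs was called, with limma adjusted p of 0.279 for hybrid cells and 0.915 for EPSCs, the highest of the alternatives in each case.

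Sparc encodes a secreted collagen-binding protein that is abundant in parietal endoderm and also in fibroblasts and glia. It was at 62.8 and 63.1 FPKM in ESCs, 126 and 121 FPKM in NSCs, 154 and 181 FPKM in EPSCs, and 223 and 215 FPKM in hybrid cells. The groups did not overlap, and Sparc was the only one of the 10 genes to be highest in hybrid cells. It rose by 0.39 on the log2 scale from EPSCs to hybrid cells (SE 0.08, limma adjusted p = 0.00608), by 1.39 from ESCs to EPSCs (SE 0.08, limma adjusted p = 1.26e-05), and by 0.82 from NSCs to hybrid cells (SE 0.08, limma adjusted p = 2.31e-05). With only the EPSC and hybrid libraries in the fit, the first of these was no longer called (limma adjusted p = 0.0551, the highest of its alternatives, which began at 0.00237). After scaling each library to a sum of 1000000, the difference between hybrid cells and NSCs was 0.20 and was not called (limma adjusted p = 0.071, the highest of its alternatives, which began at 5.92e-06). Sparc (chr11:55394159-55420080) is shown with its upstream window, chr11:55420081-55420330 on the minus strand, as that of the gene with the highest level. In it, the capitals mark GTTAAT, the HNF1 letters, 132 bases before the start, which also occur on either strand in a window of Dab2, Foxa2 and Hnf4a.
Sparc: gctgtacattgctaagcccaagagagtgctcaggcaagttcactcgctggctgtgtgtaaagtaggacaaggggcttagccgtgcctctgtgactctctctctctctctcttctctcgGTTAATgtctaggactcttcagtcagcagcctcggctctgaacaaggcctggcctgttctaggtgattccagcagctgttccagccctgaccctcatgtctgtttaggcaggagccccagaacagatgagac

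Feeder cells were present in 3 of the 4 cultures, and markers of fibroblasts moved with Sparc. Summed over 26 fibroblast markers, the level was 208 and 211 FPKM in ESCs, 91.7 and 91.9 FPKM in NSCs, 367 and 364 FPKM in EPSCs, and 772 and 599 FPKM in hybrid cells. Fn1 (fibronectin), which stem cells also express, was at 140 and 142 FPKM in ESCs and 171 and 164 FPKM in hybrid cells. Of the 25 markers tested, 22 rose from EPSCs to hybrid cells and none fell, with a median log2 difference of 1.37 against 0 over all genes tested, and 22 rose from ESCs to EPSCs and none fell (1 without the second EPSC library), with a median of 1.18 against 0.04. Among all genes tested, 22.5% rose and 21.9% fell from EPSCs to hybrid cells, and 33.7% rose and 27.3% fell from ESCs to EPSCs. Col1a1, a chain of type I collagen, rose by 1.79 and Dcn (decorin) by 1.78 from EPSCs to hybrid cells (limma adjusted p = 0.000185 and 0.000114). Col1a2, the other chain, was at 2.06 and 2.34 FPKM in ESCs, 18.0 and 18.0 FPKM in EPSCs, and 67.0 and 48.5 FPKM in hybrid cells, and was listed at 0 in NSCs. Col3a1 rose by 2.93 from ESCs to EPSCs. Postn, which rose by 3.0 from ESCs to EPSCs (limma adjusted p = 5.74e-06), is on the fibroblast list and is also one of the genes the study chose to mark EPSCs. No fibroblast marker was at 0 in both libraries of ESCs, EPSCs or hybrid cells, and 4 were at 0 in both NSC libraries, in which Sparc was nevertheless at 121 FPKM or above. The part of feeder RNA in the level of Sparc was not tested.

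**Figure D2:**
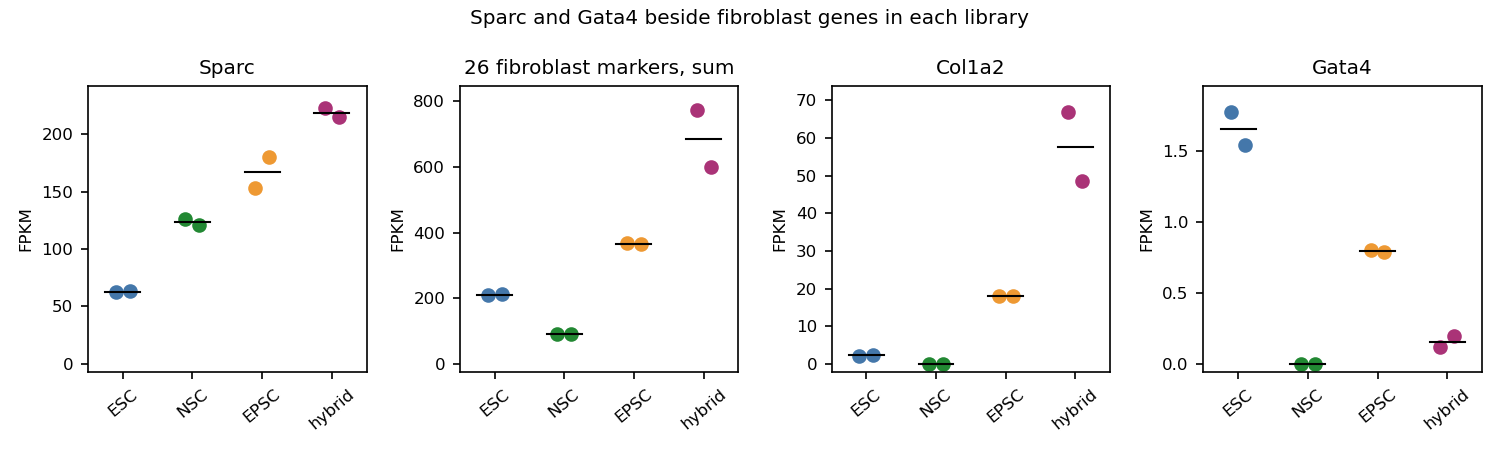
FPKM (vertical axes, each from 0) of Sparc, of the sum of 26 fibroblast markers, of Col1a2 and of Gata4 in each library, with points for the 2 libraries of a group and a line at the mean. Sparc and the fibroblast markers are both highest in hybrid cells, whereas in NSCs Sparc is at 126 and 121 FPKM with Col1a2 listed at 0 and Gata4 shows the opposite order among ESCs, EPSCs and hybrid cells.

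The comparison of hybrid cells with EPSCs asks how far fused cells share the state of their pluripotent parent. Both hybrid libraries lay below both EPSC libraries for 7 of the 10 genes, Gata4, Gata6, Sox17, Sox7, Foxa2, Cubn and Amn, against 27.5% of the 19144 genes with a nonzero value. They lay above for Sparc and Hnf4a, against 29.4%, and overlapped for Dab2. Of the 5 genes that passed the filter, limma called Gata4, Sox7 and Amn lower and Sparc higher, where 44.4% of all genes tested were called, 21.9% lower and 22.5% higher. The calls of Gata4, Sox7 and Amn held in each alternative that tested them, with the highest adjusted p at 0.0173, 0.0434 and 0.0287. Without the filter, where 30% of genes were called, Cubn (limma adjusted p = 0.00451), Gata6 (0.0435) and Sox17 (0.0317) were called lower and Hnf4a (0.0409) higher as well, and Foxa2 (0.315) was not called. By the rule in the study's methods, a mean over 3 FPKM with a ratio over 3, which 1.1% of genes passed, none of the 10 was different, since only Sparc exceeded 3 FPKM and its ratio was 1.31.

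**Figure D3:**
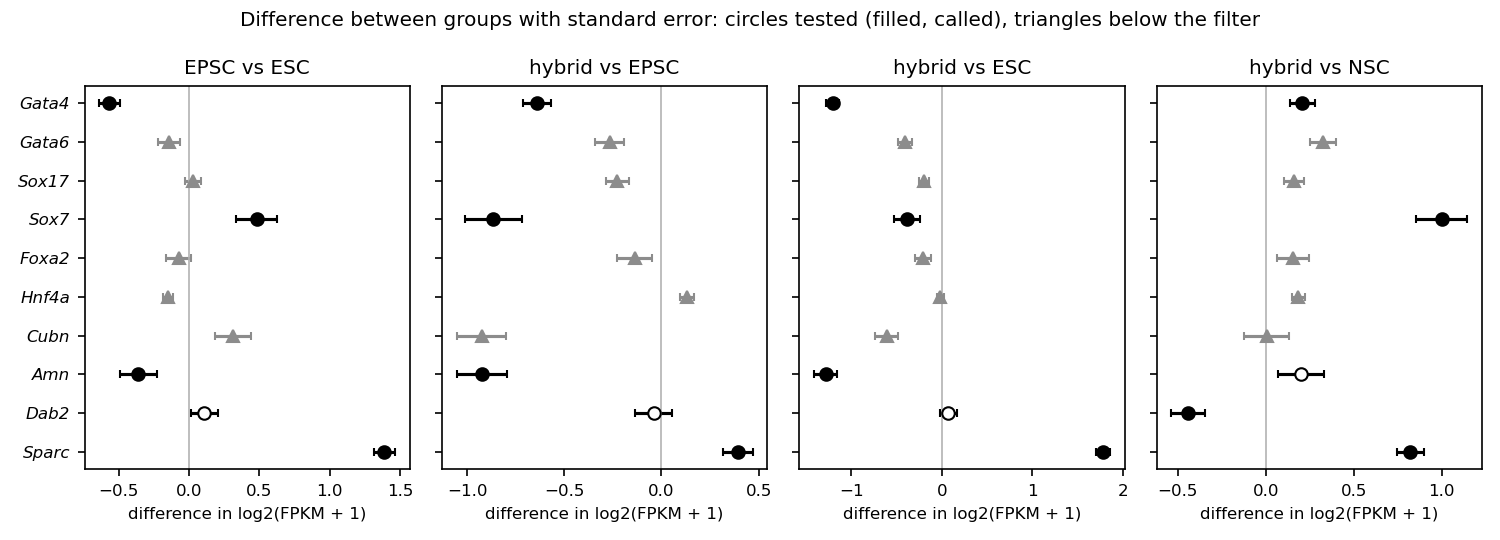
Difference in log2(FPKM + 1) between groups (horizontal axes) for each of the 10 genes, with bars of 1 standard error from the limma fit, in EPSCs against ESCs, hybrid cells against EPSCs, hybrid cells against ESCs, and hybrid cells against NSCs. Filled circles were called, open circles were tested and not called, and gray triangles were under the filter and come from the fit without it. Gata4, Sox7, Cubn and Amn lie to the left in hybrid cells against EPSCs and Dab2 lies at -0.04.

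Hybrid cells were also compared with the NSCs from which they were made. For 7 of the 10 genes both hybrid libraries lay above both NSC libraries, against 43.4% of genes, Dab2 lay below, against 37.2%, and Cubn and Amn overlapped. Of the 5 tested genes, Gata4, Sox7 and Sparc were called higher (Sparc not after scaling to a common sum) and Dab2 lower (not after quantile normalization), where 86.5% of all genes were called, 44.5% higher and 42% lower. Without the filter, where 69.4% of genes were called, Gata6 (limma adjusted p = 0.00838), Sox17 (0.0483) and Hnf4a (0.00426) were higher as well, and Foxa2 (0.175) and Cubn (1) were not called. None of the 10 passed the rule of the study, which 20.1% of genes did. The rise of Gata4 was small, 0.21 on the log2 scale (SE 0.07, limma adjusted p = 0.0275), and was lost after quantile normalization and without either NSC library or without the second hybrid library, with adjusted p of up to 0.114. Without the first hybrid library, in which it was at 0.141 FPKM, Amn was called higher than in NSCs (limma adjusted p = 0.0133, the lowest of its alternatives, which reached 0.899).

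The place of the hybrid cells between their parents was measured on the log2 scale as 0 at the NSC mean and 1 at the EPSC mean. Among 9424 genes that limma called between EPSCs and NSCs with a difference of at least 0.5, the median place was 0.967, and 8.06% of genes lay under 0.5. Gata4 lay at 0.245, with 3% of the genes at or below it, Amn at 0.178, with 2.46%, and Sox7 at 0.536, with 9.23%. Leaving out each NSC, EPSC and hybrid library in turn, an alternative chosen after seeing the data, moved Amn to between 0.0137 (without the second hybrid library) and 0.343 (without the first), Gata4 to between 0.189 and 0.3003, and Sox7 to between 0.463 and 0.609. The places also depended on the scale, and in alternatives of the same kind they were 0.421 for Gata4, 0.257 for Amn and 0.711 for Sox7 with a pseudocount of 0.1 (median of all genes 0.960), 0.266, 0.118 and 0.568 after scaling each library to a sum of 1000000, and 0.184, 0.0286 and 0.465 after quantile normalization. The share of genes at or below each gene moved as well. After scaling to a sum of 1000000 it was 8.15% for Gata4, 6.89% for Amn and 13.6% for Sox7. With a pseudocount of 0.1 it was 5.62%, 2.95% and 18.5%. For Amn it was 4.72% without the first hybrid library and 1.46% without the second. The measure of place was chosen after the values were seen and is a description of these libraries.

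EPSCs were compared with ESCs, which differ from them in strain, origin and medium, so that these cannot be told apart. Both EPSC libraries lay above both ESC libraries for Sox7, Cubn, Dab2 and Sparc, against 37.5% of genes, and below for Gata4, Gata6, Amn and Hnf4a, against 33.4%. Sox17 and Foxa2 overlapped. These shares are close to those of all genes. Of the 5 tested genes, Sparc and Sox7 were called higher and Gata4 and Amn lower, where 61% of all genes were called, 33.7% higher and 27.3% lower, and for Dab2 the difference was 0.11 (SE 0.09, limma adjusted p = 0.341). Without the filter, where 45.4% of genes were called, Hnf4a was lower (limma adjusted p = 0.0183), and Gata6, Sox17, Foxa2 and Cubn were not called, with adjusted p from 0.0944 to 0.745. None of the 10 passed the rule of the study, which 3.26% of genes did. The call of Sox7 was lost without the first EPSC library, either ESC library or the first NSC library and with only the 2 groups in the fit (limma adjusted p up to 0.106). That of Amn, a difference of -0.36 (SE 0.13, limma adjusted p = 0.0439), was lost without any one library of the 3 groups ESC, NSC and EPSC, with a pseudocount of 0.1, without the filter and after scaling to a common sum (adjusted p up to 0.257).

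Relative to ESCs, both hybrid libraries were lower for 7 of the 10 genes, Gata4, Gata6, Sox17, Sox7, Foxa2, Cubn and Amn, against 34.1% of genes. Only Sparc was higher, against 38.2%, and Dab2 and Hnf4a overlapped. Limma called Gata4, Amn and Sox7 lower and Sparc higher, where 65.5% of all genes were called, 35.3% higher and 30.2% lower. Without the filter, where 50.5% of genes were called, Gata6 (limma adjusted p = 0.00537), Cubn (0.0088) and Sox17 (0.031) were lower, and Foxa2 (0.103) and Hnf4a (0.75) were not called. Amn fell by 1.28 (SE 0.13, limma adjusted p = 0.000113), and the ESC mean was 7.02-fold above the hybrid mean (4.55 without the first hybrid library and 15.3 without the second), whereas for Gata4 it was 10.7-fold above. Sox7 fell by 0.38 (SE 0.15, limma adjusted p = 0.0495), a call that was lost without either ESC library, either NSC library or the second hybrid library, and without the filter (adjusted p up to 0.222). Sparc, whose mean was 3.48-fold that of ESCs, was the only one of the 10 genes past the rule of the study, which 4.62% of genes passed.

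Against NSCs, both kinds of embryo-derived stem cell had higher levels of most of the genes. Both EPSC libraries were higher for 9 of the 10 genes, all but Dab2, against 43.2% of genes, and both ESC libraries for 8, all but Dab2 and Sparc, against 43.9%. Both ESC libraries were lower for Dab2 and Sparc, against 38.8%. Of the 5 tested genes, each was called in both comparisons. Among all genes tested, 45.2% were called higher and 41% lower in EPSCs, 86.2% in all, and 42.8% higher and 41.9% lower in ESCs, 84.7% in all. Without the filter, where 68.6% and 67.7% of genes were called, Gata6, Sox17, Foxa2 and Cubn were higher in EPSCs and in ESCs (limma adjusted p from 0.000195 to 0.0267), and Hnf4a was called in ESCs (0.00292) and not in EPSCs (0.252). None of the 10 passed the rule of the study in either comparison, which 19.9% and 19.1% of genes did. Sox7 had the largest difference between EPSCs and NSCs, 1.86 (SE 0.15, limma adjusted p = 7.78e-06), and Amn was 1.13 higher (SE 0.13, limma adjusted p = 7.85e-05). In ESCs the differences were 1.49 for Amn, 1.41 for Gata4 and 1.38 for Sox7 (limma adjusted p = 1.56e-05, 7.36e-07 and 4.8e-05). Sparc was 0.96 lower in ESCs than in NSCs (SE 0.08, limma adjusted p = 9.51e-06) and 0.43 higher in EPSCs (SE 0.08, limma adjusted p = 0.00106). The sign of the latter turned with the scaling. It was -0.18 after scaling each library to a sum of 1000000, where the median of all genes was -0.48, and -0.13 after quantile normalization.

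Other genes of primitive endoderm and of its cultured form, extraembryonic endoderm (XEN) cells, went both ways. The counts of this list and those below stand beside the shares of all genes tested. From EPSCs to hybrid cells 22.5% rose and 21.9% fell, and from ESCs to EPSCs 33.7% rose and 27.3% fell. Of 28 such genes, 21 passed the filter, and from EPSCs to hybrid cells 9 rose and 5 fell (8 without the filter), with a median log2 difference of 0.18 against 0 over all genes tested. Those that fell most were the keratins Krt8 (log2 difference -1.72, limma adjusted p = 8.24e-05) and Krt19 (-1.21, 0.000393), which build the filaments of simple epithelia. Krt8 was at 21.9 and 18.9 FPKM in EPSCs and 5.55 and 5.44 FPKM in hybrid cells. Those that rose most were the homeobox gene Rhox5 (1.30, 0.00125), at 361 and 415 FPKM in EPSCs and 952 and 953 FPKM in hybrid cells, and Plat (1.27, 0.000906), a secreted plasminogen activator of parietal endoderm. Plat was at 173 and 168 FPKM in NSCs, at 3.67 and 3.94 FPKM in EPSCs and at 12.8 and 8.71 FPKM in hybrid cells, and 22 of 25 fibroblast markers rose in the same comparison. From ESCs to EPSCs, 10 of the 21 rose, led by Rhox5 (2.66) and the collagen chaperone Serpinh1 (1.77), and 6 fell, led by P4ha2 (-1.38) and Krt19 (-0.77).

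Secreted products of visceral endoderm differed widely in level from gene to gene. Of 16 genes listed for visceral endoderm, mostly for secreted and transport proteins, 8 passed the filter. Cited1 on this list encodes neither. Ttr and Apoa4, carriers of thyroid hormone and of lipid, were listed at 0 in every library, and Afp (alpha-fetoprotein) was at most 0.0467 FPKM. From EPSCs to hybrid cells, Apoc2 (1.79) and Cited1 (0.73) rose, and the cubilin partner Lrp2 (-0.63) and Mttp (-0.31) fell, with limma adjusted p from 0.000396 to 0.0156. The calls of Cited1 and Mttp were lost with only the 2 groups in the fit (adjusted p up to 0.0601). Lrp2, which encodes megalin, was at 2.29 and 1.83 FPKM in EPSCs and 0.994 and 0.945 FPKM in hybrid cells, a fall in the same direction as those of Cubn and Amn. From ESCs to EPSCs, Apoa2 rose by 4.78, from 0.178 and 0.199 FPKM to 35.6 and 28.0 FPKM (limma adjusted p = 1.32e-06), Trf (transferrin) rose by 1.19 (limma adjusted p = 0.000964), and the trypsin inhibitor Spink1 fell by 2.61 (limma adjusted p = 4.98e-05).

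The rest of the uptake machinery was expressed in every group. The list of 14 endocytic partners also held Hrsp12, which is not an endocytic gene and was not called. Of the 14, all tested, 2 rose and 5 fell from EPSCs to hybrid cells, with a median of 0.03. These counts were unstable, since 3 fell without either ESC library, either NSC library or the first hybrid library, 1 rose without either ESC library, either NSC library or the first EPSC library, and 4 rose without the second EPSC library. The receptor chaperone Lrpap1 fell by 0.53 (limma adjusted p = 0.000394), and the clathrin adaptor gene Ap2m1 rose by 0.29 (limma adjusted p = 0.00397). In EPSCs against ESCs 5 rose, led by Clcn5 (0.90) and Fcgrt (0.50, a call lost in 6 of 14 alternatives), and 4 fell, led by Myo6 (-1.03) and Rab11fip1 (-0.93). Lrp2 is on this list, on that of visceral endoderm and on that of other primitive endoderm genes.

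Genes of the FGF pathway, which induces primitive endoderm in the embryo, went both ways. All 16 passed the filter, and from EPSCs to hybrid cells 4 rose and 8 fell, with a median of -0.06, where 22.5% of all genes tested rose and 21.9% fell. The count that rose was unstable. Without the filter 2 rose and 8 fell, and with only the 2 groups in the fit 0 rose, whereas in other alternatives more than 4 rose. The ligand Fgf4 fell by 1.01 (limma adjusted p = 0.00129), from 114 and 97.1 FPKM to 59.6 and 44.6 FPKM, and the receptor Fgfr2 fell by 0.71 (limma adjusted p = 0.00386). The downstream genes Dusp6 (0.56) and Etv4 (0.34) rose (limma adjusted p = 0.0382 and 0.0276), but both calls were lost without the filter, with only the 2 groups in the fit, and without any one library other than the second hybrid library (adjusted p up to 0.145 and 0.114). From ESCs to EPSCs 6 rose, led by Etv4 (0.81) and Sos1 (0.63), and 4 fell, led by the feedback inhibitor Spry4 (-0.96). Fgfr2, at 5.95 and 6.29 FPKM in ESCs and 3.81 and 2.695 FPKM in EPSCs, also fell there, by 0.76 (limma adjusted p = 0.00152).

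Some factors of the epiblast, such as Nanog, oppose primitive endoderm. The 12 listed factors of pluripotent cells are not all opponents of that lineage, and this role was not tested. Of the 12, Prdm14 had the lowest level in EPSCs, at 3.18 and 2.66 FPKM. It was at 5.22 and 5.40 FPKM in ESCs and 5.71 and 4.71 FPKM in hybrid cells. Nanog, the counterpart of Gata6, was at 310 and 307 FPKM in ESCs, 352 and 334 FPKM in EPSCs, and 315 and 327 FPKM in hybrid cells, with a log2 difference of -0.10 between hybrid cells and EPSCs (SE 0.07, limma adjusted p = 0.274). Of the 12 factors, 4 rose and 1 fell from EPSCs to hybrid cells, with a median of 0.08. Zfp42 (Rex1) rose by 1.28 and Prdm14 by 0.66 (limma adjusted p = 7.42e-05 and 0.00273), and Klf4 fell by 0.60 (limma adjusted p = 0.00981). From ESCs to EPSCs, where Sox7 rose and Gata4 fell, Zfp42 fell by 1.94 and Sall4 by 0.89, and Klf4 rose by 1.31 and Tfcp2l1 by 0.78.

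The partners of Sparc in basement membrane and collagen assembly were mixed. Of 16 such genes, all tested, 6 rose and 1 fell from EPSCs to hybrid cells, with a median of 0.16, while 22 of 25 fibroblast markers rose with a median of 1.37, and the part of feeder RNA was not tested. Without the second EPSC library 3 rose, the calls of Col4a1, Col18a1 and P4hb being lost, and without the first hybrid library 2 fell. Bgn (biglycan, another gene the study used to mark EPSCs) rose by 1.36 and Nid1 (nidogen) by 0.57, and Plod1, which hydroxylates collagen, fell by 0.62 (limma adjusted p = 0.000394, 0.00309 and 0.0019). Col4a1 and Col4a2, the type IV collagens of the same membrane, rose by 0.39 and 0.55 (limma adjusted p = 0.0444 and 0.003), the former call lost in 11 of 15 alternatives (adjusted p up to 0.165), while the laminin gene Lama1 was at 5.91 and 5.77 FPKM in EPSCs and 5.38 and 5.83 FPKM in hybrid cells. From ESCs to EPSCs, where Sparc rose, 9 of the 16 fell and 4 rose, with a median of -0.29, while 27.3% of all genes tested fell and 33.7% rose. Those that fell most were the collagen prolyl hydroxylase genes P4ha2 (-1.38) and P4ha1 (-1.09), and those that rose most were Serpinh1 (1.77) and Bgn (1.71).

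**Figure D4:**
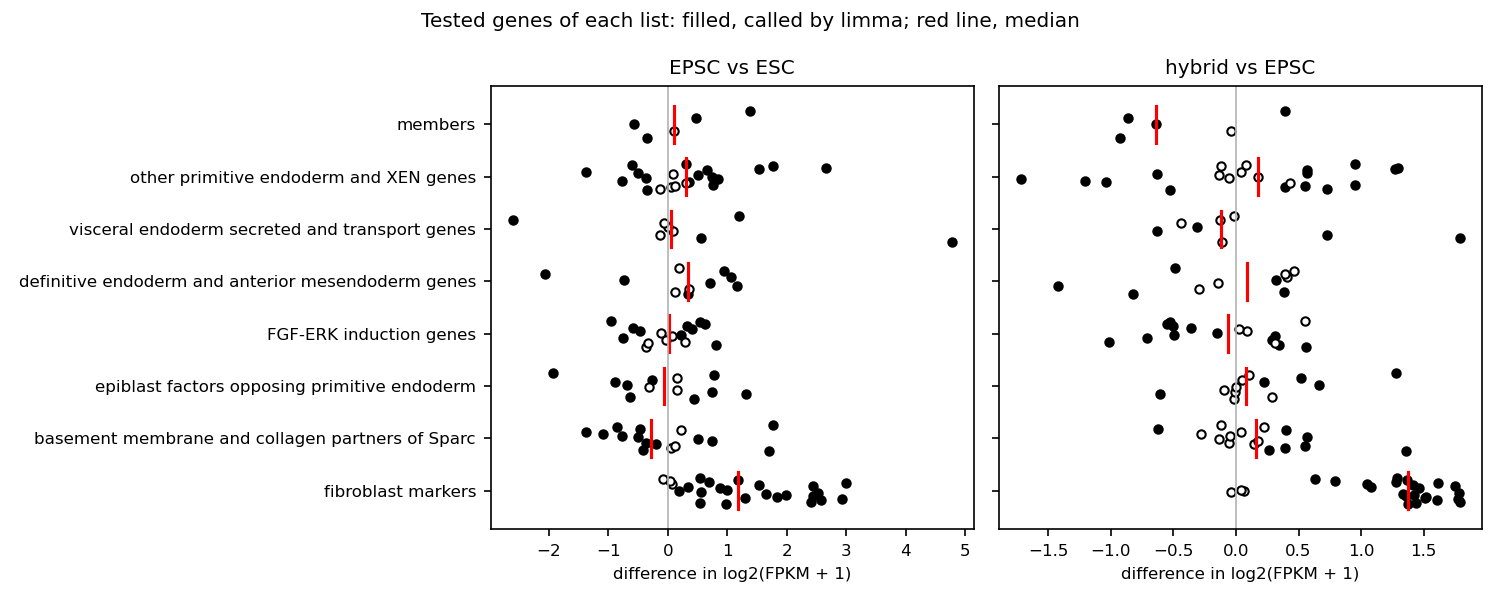
Difference in log2(FPKM + 1) (horizontal axes) of each tested gene of the named lists, for EPSCs against ESCs and hybrid cells against EPSCs, with filled points for genes called by limma, open points for the others and a red line at the median of each list. Nearly all fibroblast markers lie to the right in both panels, with medians of 1.18 and 1.37, and each of the other lists drawn holds genes on both sides of 0.

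Genes shared with definitive endoderm, the later germ layer that uses Sox17 and Foxa2 as well, were mixed. Of 16, 10 passed the filter, and from EPSCs to hybrid cells 2 rose, Cxcr4 by 0.38 and Hhex by 0.32, and 3 fell, most of all Epcam by 1.43 and Cldn6 by 0.83 (limma adjusted p = 0.014, 0.0347, 8.35e-05 and 0.00132). The call of Hhex was lost in 10 of 15 alternatives, among them those without the filter, after either scaling and without any one library other than the second EPSC and the first hybrid library, and that of Cxcr4 without the first EPSC or the first hybrid library, with adjusted p of up to 0.144 and 0.0551. Neither was called with only the 2 groups in the fit. From ESCs to EPSCs, Otx2 fell by 2.07 and Hhex by 0.74, and Epcam rose by 1.16 and Kit by 1.06. Among 15 paralogs of the 10 genes, 5 passed the filter and limma called none between EPSCs and hybrid cells, with a lowest adjusted p of 0.0947, for Spock2, which was the only 1 at an unadjusted p under 0.05. In that comparison 1 paralog was called lower without the second hybrid library or after quantile normalization, and 2 without the filter. Gata2 was at 1.48 and 1.93 FPKM in EPSCs and 0.820 and 1.73 FPKM in hybrid cells, and the Sparc relative Smoc1 at 12.3 and 12.8 FPKM against 12.4 and 14.2 FPKM. Smoc1 rose with Sparc from ESCs to EPSCs, by 2.04 (limma adjusted p = 3.57e-06), and was at 63.5 and 61.3 FPKM in NSCs. Gata5, the remaining factor of the Gata4 branch, was at most 0.0297 FPKM in ESCs and was listed at 0 in the other groups.

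Markers of other cell types were read beside these genes. Of 14 neural stem cell markers, 14 fell from NSCs to hybrid cells, with a median of -5.47, where 42% of all genes tested fell. From EPSCs to hybrid cells 1 rose (2 without the second hybrid library) and 4 fell, with a median of -0.04. The marker that rose was Vim (vimentin), also a fibroblast gene, at 292 and 299 FPKM in EPSCs and 655 and 544 FPKM in hybrid cells, and the sum of the other 13 markers was 28.7 and 28.3 FPKM in EPSCs and 18.0 and 17.4 FPKM in hybrid cells. Those that fell most between these were Slc1a3 (-0.85) and Nes (-0.68). Relative to ESCs, 4 neural markers rose in EPSCs, led by Olig1 (3.0) and Olig2 (2.73), and 3 fell, led by Pax6 (-1.34) and Sox1 (-0.49). For endothelium, which uses Sox7 and Sox17, the sum of 9 markers was 27.2 and 31.7 FPKM in EPSCs and 32.4 and 46.6 FPKM in hybrid cells, mostly Pecam1, which pluripotent cells also express. Pecam1 rose by 0.58 and Esam fell by 0.61 (limma adjusted p = 0.0341 and 0.0295), calls lost in 8 and 7 of 15 alternatives, and Tek fell by 0.52 (limma adjusted p = 0.00833, and 0.069 with only the 2 groups in the fit). In EPSCs against ESCs Tek rose by 0.91, and Vwf fell by 0.68 and Esam by 0.52, the last a call lost in 8 of 15 alternatives. For trophoblast, the other extraembryonic lineage, 2 of 7 tested markers fell from EPSCs to hybrid cells, Krt7 by 1.36 and Plet1 by 0.59, and relative to ESCs both were higher in EPSCs, by 2.18 and 2.43. For blood and macrophages, 2 of 3 tested markers rose, Cd68 by 1.26 and Lyz2 by 0.45, the latter a call lost in 11 of 15 alternatives, among them those without any one library other than the second hybrid library (limma adjusted p up to 0.147), while from ESCs to EPSCs both fell, by 2.14 and 1.25. The part of these cells in the levels of the primitive endoderm genes was not tested.

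The genes whose pattern was most like that of each tested primitive endoderm gene were taken by Pearson's r of log2(FPKM + 1) over the 8 libraries, among 8309 genes whose group means spanned at least 1 on that scale. The 8 libraries form 4 groups, so these values describe 4 levels and carry no test. Gata4 was followed most closely by Hpn (r = 0.996), Rps6ka2 (0.993) and Mef2b (0.993), and Amn by Adm2 (0.990), Mef2b (0.989) and Arc (0.987). Mef2b, a transcription factor gene on both of these lists, was at 19.2 and 17.9 FPKM in ESCs, 5.91 and 8.30 FPKM in EPSCs, 0.894 and 1.68 FPKM in hybrid cells, and 0.836 and 0.712 FPKM in NSCs. Sox7 was followed by Ccdc114 (0.997), Cks1b (0.996) and Pacrgl (0.996), Dab2 by Tirap, Pomt1 and Oscp1 (each 0.977), and Sparc by Rab38 (0.991), Ccdc88c (0.991) and Ugdh (0.988).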

How the data were processed

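Poly-A RNA of 8 libraries was sequenced as stranded libraries. The authors trimmed the reads, used STAR 2.7.9a for alignment to mm10, and deposited gene-level FPKM per library from Cuffnorm (Cufflinks 2.2.1). The library normalization of Cuffnorm, the annotation and the strand setting are not given in the sources used here, so reads of overlapping or antisense genes may be shared. FPKM sums were lower in NSCs than in the other groups, which bears on every comparison with NSCs. Depths were derived from the steps between FPKM values of 2247 genes with transcripts over 1500 nucleotides, taking fragments as 200 nucleotides long, and 77.2% to 86% of values lay within 0.1 of a whole fragment. Floors of 3 fragments cover counting error only. 0 columns belonged to other samples.

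Groups were taken from the labels. limma 3.58.1 (R 4.3.3; lmFit, contrasts, eBayes with trend) was run on log2(FPKM + 1) with 4 groups in one fit, 4 residual and 3.25 prior degrees of freedom, two-sided, with Benjamini-Hochberg adjustment over 13239 genes, and was tested on simulated data. Exact permutation of the 4 libraries of a comparison reaches no p under 0.333 and was not used. The rule of the study was applied to group means with the thresholds of its methods, a mean over 3 FPKM and a ratio over 3. Its results text gives 2 for both thresholds, and counts at 2 stand among the alternatives. All 10 genes were reported, and for each list up to 2 called genes with the largest difference in each direction, in hybrid cells against EPSCs and in EPSCs against ESCs. A called gene of the endocytic list is not reported here. Other genes were named after their values were seen. These include Nanog, Fgfr2, Lrp2, Col1a2, Bgn, Col4a1, Col4a2, Lama1, Gata5, Col18a1, P4hb, Cd68, Lyz2, Tek, Vim and Mef2b. Also named outside the rule of up to 2 genes per list were Fn1, Ttr, Apoa4, Afp, Hrsp12, Pou5f1 and Fabp7. The members and lists were chosen with earlier results of these data known. Positions and promoter windows came from RefSeq on GRCm38, and tables were handled with Python 3.11.15 (pandas 2.3.3). Alternatives covered the pseudocount, the filter, the scaling, the groups in the fit, the replicate number, the thresholds of the rule, and each library left out.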

Additional observations from a re-analysis of the deposited data

How the results depend on the processing

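The number of the 10 primitive endoderm genes called by limma depended on the filter, since 5 of them stayed under 1 FPKM. Without a filter, 8 were called in hybrid cells against EPSCs (4 as reported), 7 in hybrid cells against NSCs (4), 9 in EPSCs against NSCs (5) and 10 in ESCs against NSCs (5). With a filter of 3 FPKM, which leaves few of the 10 genes to test, the counts were 1, 2, 2 and 2 in these comparisons, and 1 each in EPSCs and in hybrid cells against ESCs (4 and 4). With that filter, 47.1% of all genes tested were called in hybrid cells against EPSCs and 87.2% in hybrid cells against NSCs. In EPSCs and in ESCs against NSCs the shares were 86.8% and 85.6%, and in EPSCs and in hybrid cells against ESCs 63.2% and 67%. Shares for the reported fit and the fit without a filter are given above. After quantile normalization, 2 were called in hybrid cells and 3 in EPSCs against NSCs, where 85.7% and 85.9% of all genes tested were called. With that normalization, Sparc in EPSCs against NSCs (0.43 as reported) turned to -0.13. It turned to -0.18 after scaling to a sum of 1000000, and was called in neither (limma adjusted p up to 0.233). With the same scaling, chosen here after seeing the data, the sum of the 9 genes other than Sparc (hybrid cells minus NSCs, 0.891 FPKM as reported) turned to -1.46. The cause was not tested. Without each library in turn, 2 to 4 genes were called in EPSCs against ESCs (2 without the first library of NSCs or EPSCs or without either ESC library), 3 to 5 in hybrid cells against ESCs and against NSCs, 4 to 5 in hybrid cells against EPSCs, and 5 to 6 in EPSCs and in ESCs against NSCs. A group left with 1 library is assumed to vary like the others. The share of all genes called moved in these fits as well, so their counts cannot be read as particular to the 10 genes. With the replicate block, 4 genes were called in hybrid cells against EPSCs, and no call of the 10 genes changed in any comparison. Same-numbered libraries of hybrid cells and EPSCs deviated together (r = 0.280), those of the other comparisons hardly (-0.11 to 0.07), and nothing in the labels pairs them.

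Under the rule of the study, 0 of the 10 genes passed in each comparison except hybrid cells against ESCs (1, Sparc). With thresholds of 2, 1 passed in hybrid cells against EPSCs, in EPSCs against ESCs and in EPSCs and ESCs against NSCs, and 2 in hybrid cells against ESCs. Without the FPKM threshold the counts were 4 in hybrid cells against EPSCs, 6 in hybrid cells against NSCs, 1 in EPSCs against ESCs, 4 in hybrid cells against ESCs, and 8 in EPSCs and 8 in ESCs against NSCs. The share of all genes that passed is given above only for the rule with the thresholds of the study's methods. Counts under other settings of the rule therefore cannot be read as particular to the 10 genes. After scaling to a common sum, 2 passed in hybrid cells against ESCs and 1 each in EPSCs and ESCs against NSCs. Without each library in turn, 0 to 1 passed in hybrid cells against EPSCs and 0 to 1 in EPSCs against NSCs, the 1 without the second EPSC library. Of the counts of called genes in the lists under these alternatives, 2163 stayed within 1.5 times of the reported count and 177 did not. Depth limits Gata4, Gata6, Sox17, Foxa2, Hnf4a, Cubn and Amn, for which the lower hybrid library held about 3.91 (Sox17) to 13.0 (Gata6) fragments.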
